A study of Mus musculus with 33 samples.

Results

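The Cited family was measured as 3 rows, Cited1, Cited2 and Cited4, of a table of raw read counts for 35349 gene symbols. The rows were picked by symbol because Cited1 stood about as low in kidneys that had lost 1 copy of Six2 as in kidneys that had lost both copies at embryonic day 11.5 (E11.5), so the E11.5 genotype values of Cited1 are given below as a description without a test. The rule used no value of Cited2 or Cited4 and none of the day 15.5 (E15.5) specimens. RNA was sequenced from whole embryonic mouse kidneys of 5 groups. These were 4 Six2 heterozygous and 4 wildtype specimens at E15.5, and 5 Six2 knockout, 5 heterozygous and 6 wildtype specimens at E11.5. The labels name the genotypes without describing how the Six2 allele was made; the title code of the E15.5 heterozygous libraries, GCE, is not explained there. They also do not say whether a specimen is 1 animal or a pool, so the unit of replication in each test is the specimen.

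CITED proteins do not bind DNA by themselves. Their acidic C-terminal tail binds the histone acetyltransferases CBP and p300 (genes Crebbp and Ep300), through which they act as coactivators of some DNA-binding factors. CITED2, for example, also displaces the hypoxia factor HIF1A from the same docking site. In the developing mouse kidney, Cited1 marks the uncommitted nephron progenitors of the cap mesenchyme, the cells that Six2 keeps undifferentiated, and its transcript disappears as these cells begin to form nephrons. Mouse kidneys without Cited1 alone still form nephrons. Cited2 is widely expressed and is needed for heart, adrenal and neural tube development in the mouse. Cited4 is the least studied of the family and also binds CBP and p300.

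The libraries held 10.82 to 42.07 counts in units of 1e+06. Six2 checked the labels: at E15.5 it ran from 5.69 to 6.51 counts per 1e+06 counts (CPM) in heterozygous and from 11.01 to 12.8 CPM in wildtype kidneys, and at E11.5 from 0.291 to 0.666 CPM in knockout, from 9.90 to 17.0 CPM in heterozygous and from 19.5 to 33.1 CPM in wildtype kidneys, so that no 2 genotypes of a stage overlapped. At E11.5 the libraries were run in 2 labelled batches. In batch 1, ribosomal RNA took 0.878% to 12.5% of the counts in knockout, 3.57% to 18.7% in heterozygous and 20.5% to 26.6% in wildtype libraries, against at most 0.469% in any library of batch 2 and 1.08% in any at E15.5. E11.5 comparisons carry a batch term for this reason. That term cannot remove the difference in ribosomal load between genotypes inside batch 1.

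The 3 genes lie on different chromosomes, and in the GENCODE vM21 annotation (mm10) no other gene overlaps any of them. Cited1 (ENSMUSG00000051159) occupies chrX:102247381-102252181 on the minus strand and has 3 exons. Cited2 (ENSMUSG00000039910) occupies chr10:17723218-17725674 on the plus strand, and Cited4 (ENSMUSG00000070803) occupies chr4:120666572-120667820 on the plus strand in a single exon. Their coding sequences are 609, 807 and 546 bases long in that order. The 250 bases before the first RefSeq start of each gene (GRCm38.p6, which is mm10) are shown because 1 of the 3 genes, Cited1, differed between the genotypes at E15.5 and the others did not pass the test there. They are written on the strand of the gene, 5′ to 3′, with capitals for a TATAAA or ACGTG match. The windows are chrX:102252182-102252431 for Cited1, chr10:17722978-17723227 for Cited2 and chr4:120666313-120666562 for Cited4.
Cited1: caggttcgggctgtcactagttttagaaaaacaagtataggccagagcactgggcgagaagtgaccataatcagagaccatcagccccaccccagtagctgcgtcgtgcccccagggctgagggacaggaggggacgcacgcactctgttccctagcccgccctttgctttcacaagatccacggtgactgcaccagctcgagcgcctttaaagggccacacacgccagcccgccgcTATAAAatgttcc
Cited2: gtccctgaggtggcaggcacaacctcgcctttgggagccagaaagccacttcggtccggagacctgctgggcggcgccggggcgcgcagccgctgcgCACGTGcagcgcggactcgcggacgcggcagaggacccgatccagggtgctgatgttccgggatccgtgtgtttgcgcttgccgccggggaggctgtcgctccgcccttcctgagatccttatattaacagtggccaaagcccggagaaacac
Cited4: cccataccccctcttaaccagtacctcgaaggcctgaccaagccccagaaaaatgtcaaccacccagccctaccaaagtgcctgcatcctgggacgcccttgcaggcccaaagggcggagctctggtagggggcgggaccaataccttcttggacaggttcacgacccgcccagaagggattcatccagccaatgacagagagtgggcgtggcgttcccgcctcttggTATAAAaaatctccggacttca

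Short motifs were searched on both strands of these windows and of 32851 windows of the same 250 bases before RefSeq starts in the mouse genome. TATAAA began 13 bases before the start of Cited1 and 22 bases before that of Cited4, was not found before Cited2, and occurs in 12.4% of all windows. ACGTG, the core of the hypoxia response element, was matched before Cited2 on both strands of the palindrome CACGTG, 153 and 152 bases before the start, so that the matches overlap; it occurs in 16.6% of all windows. TCAGGTT, a core of the motif bound by factors of the Six2 type, is found in 3.49% of windows and in none of the 3. GATAAG, the GATA motif, is found in 6.55% of windows and likewise in none of the 3. A match or its absence describes only these letters in these windows.

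At E15.5, Cited1 in heterozygous kidneys fell to 33.2% of its wildtype level (95% confidence interval 31.3% to 35.3%). The 4 heterozygous kidneys held 13.3, 14.3, 13.0 and 13.5 CPM, from 659 to 857 counts each. The 4 wildtype kidneys held 41.8, 41.1, 39.7 and 39.5 CPM, from 1998 to 2654 counts each. The groups were far apart: the highest heterozygous value lay well below the lowest wildtype value, and within each genotype the specimens differed little, with an SD of 0.572 CPM around 13.5 in heterozygous and of 1.14 CPM around 40.5 in wildtype kidneys. The log2 fold change was -1.59 ± 0.04 (SE; edgeR quasi-likelihood test, Benjamini-Hochberg adjusted p = 1.97e-09). The exact two-sided permutation test of log2 CPM gave p = 0.0286, the smallest that 70 splits of 4 against 4 allow. Cited1 is X-linked, and the specimens included 1 female and 3 males of each genotype. The female specimens, at 13.5 CPM in the heterozygous and 41.1 CPM in the wildtype group, lay within the range of the males of their genotype. Each specimen had been run in 2 batches, and the Cited1 values of the single runs were 12.1 to 16.7 CPM in heterozygous and 38.1 to 44.7 CPM in wildtype kidneys. Whole kidneys were sequenced, so fewer Cited1-expressing cells and less Cited1 RNA per cell cannot be told apart.

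Cited1 was the 1 member of 3 that passed the test at E15.5, where 0.57% of the 18244 genes tested passed in either direction and 0.362% passed as lower. Among those 66 lower genes it had the deepest fall, followed by Kazald1 at -1.58, and it had the smallest p of all genes tested. Six2 itself fell by 0.93 on the log2 scale in the same kidneys and ranked 10 among the 66 by size. Cited2 stood at 23.2, 21.4, 18.1 and 17.4 CPM in heterozygous against 18.6, 20.3, 18.1 and 25.0 CPM in wildtype kidneys. These ranges overlapped, with a log2 fold change of -0.04 ± 0.10 (SE; edgeR adjusted p = 0.969) and a 95% interval of 83.1% to 114% of the wildtype level. Cited4 stood at 10.04, 8.55, 8.41 and 8.10 CPM in heterozygous and 8.79, 7.58, 7.46 and 7.51 CPM in wildtype kidneys. Here too 1 wildtype value lay among the heterozygous ones. Its log2 fold change was 0.16 ± 0.07 (SE; edgeR adjusted p = 0.62; exact permutation p = 0.114), with a 95% interval of 99.9% to 125% of the wildtype level.

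**Figure D1:**
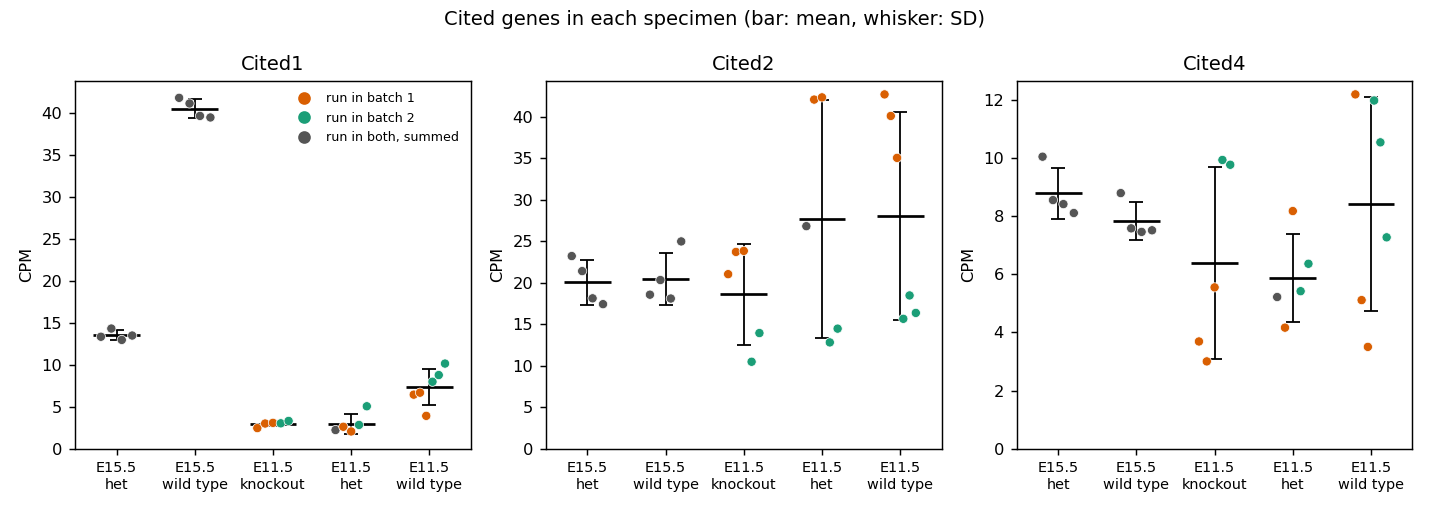
Each point is the CPM of Cited1, Cited2 or Cited4 in 1 specimen, in 5 groups along the horizontal axis, coloured by the batch of its library; bars are group means and whiskers SDs. The 4 E15.5 heterozygous specimens sit between 13.0 and 14.3 CPM for Cited1, all below the wildtype specimens at 39.5 to 41.8 CPM, while the E11.5 values of Cited2 split by batch.

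The fall of Cited1 at E15.5 was larger than that of the other progenitor genes. A list of 20 genes of the uncommitted cap mesenchyme, which does not hold Cited1, had a median log2 fold change of -0.13 in heterozygous kidneys, beside 0.00055 over all genes tested. Where 0.362% of all genes passed as lower and 0.208% as higher, this list had 7 lower and 1 higher of 20. Those with the largest changes were Six2, Crym, which encodes a thyroid hormone-binding crystallin, at -0.74 ± 0.04 (SE), the homeobox gene Meox1 at -0.50 ± 0.06, Traf1 at -0.44 ± 0.05, Phf19 at -0.42 ± 0.04 and Dpf3 at -0.34 ± 0.06. Eya1, a coactivator that partners Six2, was the gene that rose, by 0.28 ± 0.03. The summed level of the 20 genes was 1158 to 1250 CPM in heterozygous and 1278 to 1335 CPM in wildtype kidneys, which did not overlap. Cited1 was therefore also set against these genes within each specimen, a comparison added after the values had been seen. The log2 ratio of Cited1 to Six2 averaged 1.14 ± 0.09 in heterozygous and 1.80 ± 0.11 in wildtype kidneys (SD, n = 4 each), a difference of -0.66. Relative to the mean of the other 19 list genes, log2 Cited1 averaged -0.86 ± 0.08 in heterozygous and 0.59 ± 0.05 in wildtype kidneys (SD, n = 4 each), a difference of -1.45. In both measures every heterozygous specimen was below every wildtype specimen; no test is given, since the ratios were formed after the fall of Cited1 had been seen. None of the 19 genes, 0 of 19, had as low a log2 fold change at E15.5 as Cited1.

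In the same comparison at E15.5, 0.208% of all genes passed as higher and 0.362% as lower. Of the other cell type lists, the committed progenitor, ureteric bud, stroma, macrophage, endothelium, adrenal and gonad, and neuron and glia lists had 0 genes called there. The erythroid list had 1 called gene of 10, Hbb-bs, higher by 0.24 ± 0.04 (SE), and the skeletal muscle and cartilage list 1 of 6, Col2a1, lower by 0.60 on the log2 scale. Their part in the Cited1 value was not tested.

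At E11.5, Cited1 was lower than wildtype in both Six2 mutant genotypes, by similar amounts. Knockout kidneys held 2.46, 3.00, 3.08, 3.03 and 3.31 CPM, heterozygous kidneys 2.23, 2.62, 2.06, 2.84 and 5.06 CPM, and the 6 wildtype kidneys from 3.92 through a median of 7.33 to 10.1 CPM. Every knockout value was below every wildtype value, whereas 1 heterozygous specimen, at 5.06 CPM, exceeded the lowest wildtype specimen. Within a batch the heterozygous and wildtype groups were separate, at 2.06 to 2.62 against 3.92 to 6.68 CPM in batch 1 and at 2.84 to 5.06 against 7.98 to 10.1 CPM in batch 2. The fitted log2 fold change, with batch and sex in the model, was -1.24 ± 0.20 (SE) for knockout and -1.30 ± 0.20 for heterozygous against wildtype kidneys, which is 42.2% and 40.7% of the wildtype level. Knockout against heterozygous kidneys differed by 0.06 ± 0.22. Both comparisons with wildtype share the same 6 wildtype kidneys, and these values chose the gene. Each rests on few reads, since Cited1 had 31 to 57 counts in a knockout, 30 to 109 in a heterozygous and 66 to 215 in a wildtype kidney. In batch 1 alone knockout against wildtype kidneys came to -0.85 and knockout against heterozygous kidneys to 0.75. In that batch every knockout kidney was female and every heterozygous kidney male, so sex and genotype are mixed in the second value. Over both batches 4 female and 1 male kidneys were knockout, 2 female and 3 male heterozygous, and 4 female and 2 male wildtype.

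The other progenitor genes had a different order of values across the same genotypes. Cited1 was picked for its like values in both mutant genotypes, so a contrast with genes not picked that way is only a description. In 11 of the 19 list genes other than Six2 the log2 fold change against wildtype kidneys was lower in knockout than in heterozygous kidneys by at least 1. The share of all genes with such a gap was not counted. Crym was at -4.88 ± 0.30 (SE) in knockout and -1.27 ± 0.22 in heterozygous kidneys. Meox2, a homeobox gene, was at -3.22 ± 0.18 in knockout and -0.40 ± 0.16 in heterozygous kidneys, and Six2 at -5.67 ± 0.18 in knockout and -0.96 ± 0.12 in heterozygous kidneys. For Cited1 these values were -1.24 and -1.30. Of the 20 list genes 16 were lower in knockout against wildtype kidneys, 16 in knockout against heterozygous kidneys, and 2, Six2 and Crym, in heterozygous against wildtype kidneys. In that order, the shares of all genes called lower were 4.05%, 2.81% and 0.0558%. Relative to the mean of the 19 genes, log2 Cited1 averaged -2.27 ± 0.24 in knockout, -3.67 ± 0.68 in heterozygous and -2.53 ± 0.43 in wildtype kidneys (SD, n = 5, 5 and 6).

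**Figure D2:**
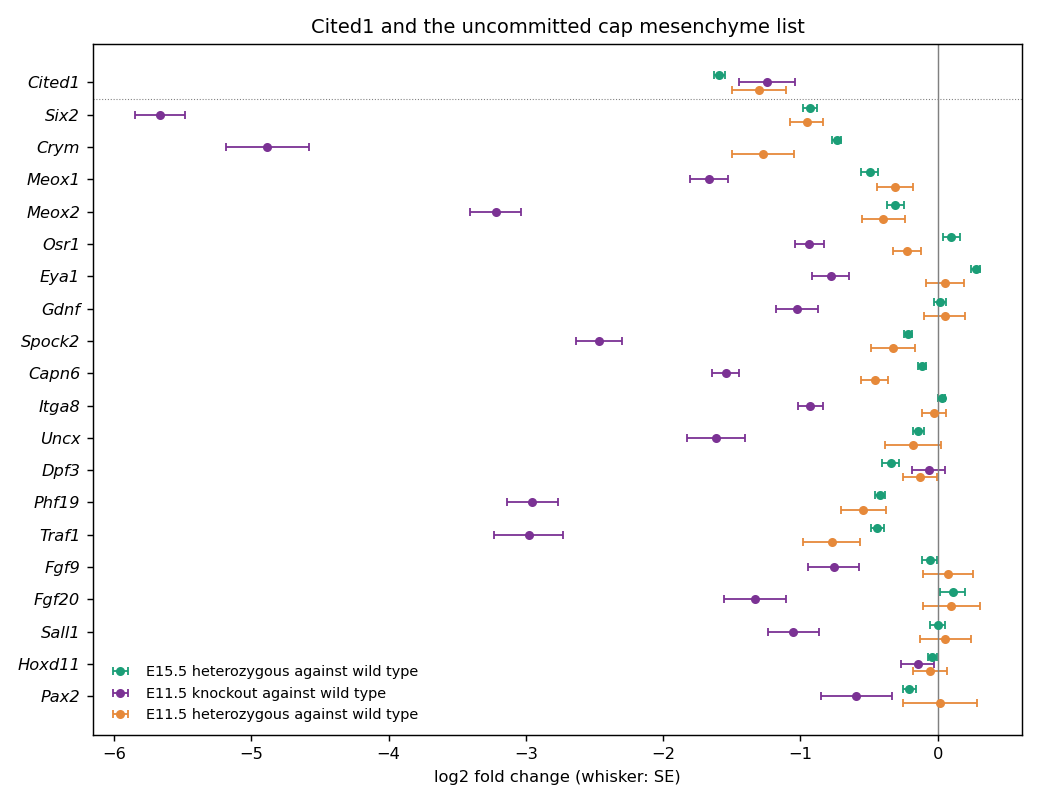
Log2 fold change (horizontal axis, whiskers SE) of Cited1, at the top, and of 19 of the 20 uncommitted cap mesenchyme genes for E15.5 heterozygous, E11.5 knockout and E11.5 heterozygous against wildtype kidneys of the same stage. The knockout and heterozygous points of Cited1, which was picked for this likeness, lie together at -1.24 and -1.30, while those of Six2, Crym and Meox2 are far apart.

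In wildtype kidneys the level of Cited1 was 5.81-fold higher at E15.5 than at E11.5, at 39.5 to 41.8 CPM against 3.92 to 10.1 CPM. The groups did not overlap, and the log2 fold change was 2.54 ± 0.14 (SE), given without a test because the E11.5 wildtype values entered the choice of the gene. Of all 17362 genes tested 66.1% passed in this comparison and 34% passed as higher. A log2 fold change at least as high as that of Cited1 was held by 3.64% of them, whether or not they passed. Stage and library set cannot be told apart, because the stages were sequenced as separate sets. Six2 fell by 1.08 on the log2 scale over the same interval (11.01 to 12.8 CPM at E15.5 and 19.5 to 33.1 CPM at E11.5). Of the 20 cap mesenchyme genes 10 fell, among them Meox1 at -2.10 ± 0.14 (SE) and Osr1 at -1.39 ± 0.11, and 3 rose, Traf1 at 0.97 ± 0.16, Itga8 at 0.80 ± 0.08 and Crym at 0.43 ± 0.18. Cited2 was the 1 of the 2 members open to a test that passed, as lower, as did 32.1% of genes, and it fell by 0.42 on the log2 scale (SE 0.11; edgeR adjusted p = 0.00271), at 18.1 to 25.0 CPM at E15.5 and, over both batches, 15.7 to 42.7 CPM at E11.5, so the ranges overlapped. Without the E11.5 batch term this difference of Cited2 did not pass (-0.57, adjusted p = 0.172). Cited4 did not pass either (-0.14 ± 0.26, adjusted p = 0.645), at 7.46 to 8.79 CPM at E15.5 and 3.50 to 12.2 CPM at E11.5.

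The make-up of the family changed with these values. Per kilobase of the deposited gene length, Cited1 held 31.0% ± 2.39 of the summed level of the 3 genes in E15.5 heterozygous and 58.0% ± 2.38 in E15.5 wildtype kidneys (SD, n = 4 each). At E11.5 its share was 10.4% ± 0.973 in knockout, 9.61% ± 6.14 in heterozygous and 17.5% ± 7.58 in wildtype kidneys (SD, n = 5, 5 and 6). Cited2 was the highest of the 3 genes per kilobase in E15.5 heterozygous kidneys, at 10.2 ± 1.39 CPM per kilobase, where Cited1 stood at 7.69 ± 0.325 and Cited4 at 7.02 ± 0.691. In E15.5 wildtype kidneys Cited1 was the highest at 23.0 ± 0.647, followed by Cited2 at 10.4 ± 1.60 and Cited4 at 6.27 ± 0.512. The summed level was 24.9 ± 2.11 CPM per kilobase in E15.5 heterozygous and 39.7 ± 1.45 in E15.5 wildtype kidneys. At E11.5 it was 16.3 ± 1.37 in knockout, 20.4 ± 7.11 in heterozygous and 25.2 ± 5.60 in wildtype kidneys, and Cited2 had the highest mean of the 3 genes in each of these groups. Those means span both batches. In batch 2, Cited4 exceeded Cited2 per kilobase in knockout replicates 4 (7.94 against 5.32) and 5 (7.81 against 7.08) and in wildtype replicate 4 (9.58 against 7.95). In all other E11.5 kidneys Cited2 was above Cited4.

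**Figure D3:**
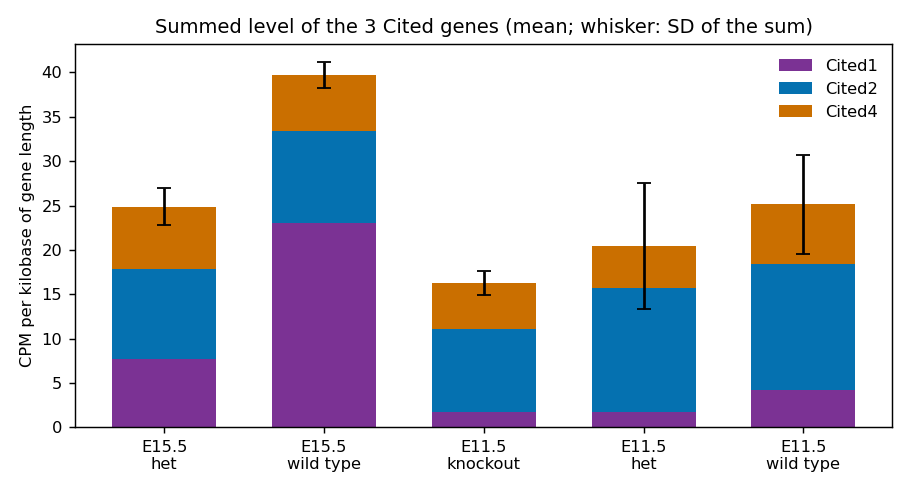
Stacked bars give the mean level of Cited1, Cited2 and Cited4 in CPM per kilobase of gene length in each of the 5 groups, with the SD of their sum as the whisker. The Cited1 segment is the largest of the 3 in E15.5 wildtype kidneys and the smallest in the E11.5 groups.

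Cited2, whose protein competes with HIF1A for CBP and p300, fell in knockout kidneys at E11.5 to 64.7% of its wildtype level (95% confidence interval 55.9% to 74.9%). Its values differed more between batches than between genotypes. In batch 1 the knockout kidneys held 21.1, 23.7 and 23.9 CPM, the heterozygous kidneys 42.1 and 42.4 CPM, and the wildtype kidneys 42.7, 40.1 and 35.1 CPM. In batch 2 the knockout kidneys held 10.5 and 13.9 CPM, the heterozygous kidneys 12.8 and 14.5 CPM, and the wildtype kidneys 15.7, 18.5 and 16.4 CPM, and the heterozygous kidney run in both batches had 26.8 CPM over both. Within each batch every knockout value was below every wildtype value; against heterozygous kidneys this held in batch 1, and the ranges overlapped in batch 2. With batch and sex in the model the log2 fold change was -0.63 ± 0.10 for knockout against wildtype kidneys (SE; edgeR adjusted p = 0.000824), -0.53 ± 0.11 for knockout against heterozygous kidneys (adjusted p = 0.0145) and -0.10 ± 0.10 for heterozygous against wildtype kidneys (adjusted p = 0.801). Cited2 was thus the 1 of the 2 members open to a test that passed in the first and second comparison, where 7.14% and 3.77% of the 16141 genes tested passed, and 0 of 2 passed in the last, where 0.0681% did. The batch term itself was -1.20 ± 0.09 for batch 2 against batch 1 (adjusted p = 8.97e-09), one of 52.7% of genes for which that term passed.

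The Cited2 result depended on how batch was handled. Batch 2 alone gave -0.51 (adjusted p = 0.273), a model without batch gave -0.52 (adjusted p = 0.688), and leaving out the 6 libraries above 5% ribosomal counts, all of batch 1, gave -0.61 (adjusted p = 0.0637) for knockout against wildtype kidneys. Without those 6 libraries the only wildtype kidneys left were the 3 of batch 2. Batch 1 alone gave -0.76 (adjusted p = 0.00479), and a model blocked by the first part of the library titles, not by batch, gave -1.45 (adjusted p = 0.0256), and -1.71 (adjusted p = 0.0278) for knockout against heterozygous kidneys. In the only title group with both knockout and heterozygous kidneys, the knockout kidney was of batch 2 and the others of batch 1. Batch and genotype are therefore mixed in both values of the title model. An exact permutation test of log2 CPM in knockout against wildtype kidneys, which takes no account of batch, gave p = 0.18. With batch and sex removed and genotype kept, Cited2 correlated at r = 0.889 with Six2 over the 16 E11.5 kidneys and at a median r of 0.866 with the 20 cap mesenchyme genes, against 0.552 and 0.482 for Cited1. The points share genotype groups and libraries, so these values only describe likeness. Those of Cited1 also rest on the genotype values by which it was chosen, so its lower r is not a result. The 5 genes whose pattern was most like that of Cited2 were Fgfr1, a fibroblast growth factor receptor, at r = 0.972, Flrt1 at 0.962, Ahdc1 at 0.937, the growth factor Fgf1 at 0.925 and the small GTPase Rem1 at 0.923. For Cited1 they were Abtb2 at r = 0.925, Pecr, a peroxisomal reductase, at 0.887, Ubtd1 at 0.879, the interleukin 22 receptor subunit Il22ra1 at 0.879 and Mafk, a small MAF transcription factor, at 0.877. None of these 5 passed the test at E15.5, where Cited1 fell; Il22ra1 stood at -0.96 ± 0.25 (SE; adjusted p = 0.192) and Ubtd1 at -0.19 ± 0.04 (adjusted p = 0.0521).

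Other cells' genes moved in the comparison in which Cited2 fell. In knockout against wildtype kidneys, where 3.09% of all genes rose and 4.05% fell, all 9 measured macrophage genes rose, with a summed level of 102 to 224 CPM in knockout and 68.5 to 136 CPM in wildtype kidneys and no gene at 0. Of the committed progenitor and renal vesicle list 5 of 16 rose and 1 fell, and of the ureteric bud list 5 of 14 rose and 2 fell, with Tfcp2l1, a transcription factor gene of the collecting duct, at 1.26 ± 0.19 (SE). The stroma list had 1 higher and 1 lower gene of 11 and the neuron and glia list 1 higher of 8, while the endothelium, erythroid, adrenal and gonad, and skeletal muscle and cartilage lists had 0 called of 7, 10, 5 and 3 genes tested. The part of these cells in the Cited2 value was not tested.

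Cited4 passed in no comparison. At E11.5 it held 3.69, 3.00, 5.55, 9.93 and 9.76 CPM in knockout kidneys, 5.22, 4.16, 8.17, 5.42 and 6.36 CPM in heterozygous kidneys, and in the 6 wildtype kidneys from 3.50 through a median of 8.90 to 12.2 CPM. All 3 genotypes overlapped, and in knockout kidneys the batch 1 specimens, at 3.00 to 5.55 CPM, lay below those of batch 2. The log2 fold change was -0.35 ± 0.30 for knockout against wildtype kidneys (SE; edgeR adjusted p = 0.573), -0.58 ± 0.31 for heterozygous against wildtype kidneys (adjusted p = 0.621) and 0.23 ± 0.33 for knockout against heterozygous kidneys (adjusted p = 0.757). The 95% intervals ran from 50.7% to 122%, from 42.8% to 105% and from 72.7% to 190% of the level in the second-named genotype, with 31 to 243 counts of Cited4 in each kidney.

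From kidney to kidney at E11.5, Cited4 moved with the genes of red blood cells. With batch and sex removed and genotype kept, the 5 genes most like it over the 16 kidneys were Fech, which encodes the last enzyme of haem synthesis, at r = 0.969, the carbonic anhydrase gene Car2 at 0.950, Fam46c at 0.947, the embryonic beta-like globin Hbb-y at 0.947 and Slc4a1, the anion exchanger of the red cell membrane, at 0.938. Over the erythroid list of 10 measured genes r ran from 0.766 to 0.947 with a median of 0.908, and 9 of the 10 were over 0.8, while the median over all genes was -0.0213. The wildtype kidney with the highest Cited4, at 12.2 CPM, also had the highest summed erythroid level, 9238 CPM. The knockout kidney with the lowest Cited4, at 3.00 CPM, had the lowest erythroid sum, 1941 CPM. The erythroid sum ran from 1941 to 5440 CPM in knockout, from 2234 to 4994 CPM in heterozygous and from 2166 to 9238 CPM in wildtype kidneys, with no list gene at 0; its part in the Cited4 values was not tested. Between stages Cited4 and this list differed. At E15.5 against E11.5 in wildtype kidneys 7 of the 10 erythroid genes fell and 2 rose, where 32.1% of all genes fell and 34% rose. The median log2 fold change of the list was -1.83, beside -0.14 for Cited4.

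**Figure D4:**
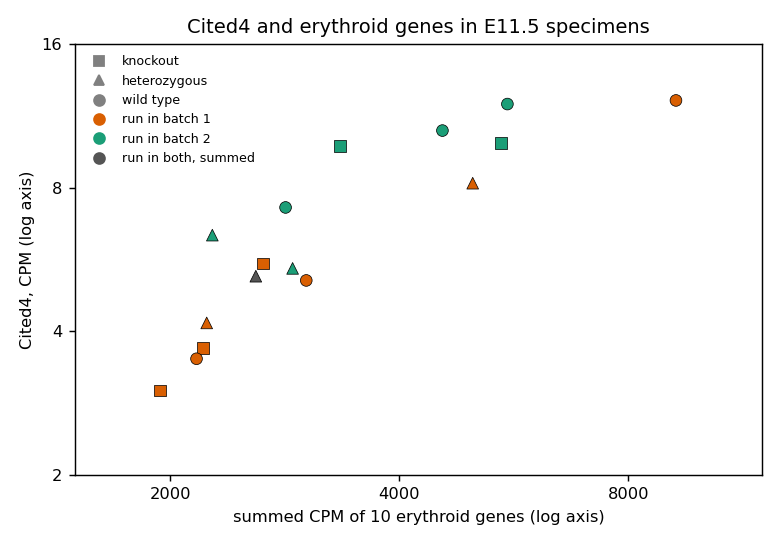
Cited4 in CPM (vertical log axis) against the summed CPM of 10 erythroid genes (horizontal log axis) in each of the 16 E11.5 kidneys, with shape for genotype and colour for batch. Kidneys with more erythroid RNA have more Cited4, from 1941 and 3.00 CPM at the lower left to 9238 and 12.2 CPM at the upper right.

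The transcript of Crebbp, which encodes CBP, averaged 188 ± 11.9 CPM in knockout, 207 ± 56.6 CPM in heterozygous and 204 ± 45.6 CPM in wildtype kidneys at E11.5 (SD, n = 5, 5 and 6), and 116 ± 3.07 CPM in heterozygous and 123 ± 5.28 CPM in wildtype kidneys at E15.5 (SD, n = 4 each). Neither Crebbp, Ep300 nor Hif1a passed in any genotype comparison. Between stages in wildtype kidneys, where 66.1% of all genes passed, all 3 passed, Crebbp at -0.74 ± 0.09 (SE), Ep300 at -0.83 ± 0.10 and Hif1a at 0.10 ± 0.03. Of the list of CITED partners, 2 of 18 genes tested rose and 0 fell in knockout against wildtype kidneys at E11.5, where 3.09% of all genes rose. They were the row Esr1, the symbol of the oestrogen receptor gene, and the LIM homeobox gene Lhx2 at 1.66 ± 0.46. In heterozygous against wildtype kidneys 1 rose, Esr1, where 0.0124% of all genes did. Lhx2 had 0.581 to 1.79 CPM in knockout and 0 to 1.24 CPM in wildtype kidneys, which overlapped. Esr1 was at 2.96 to 8.20 CPM in knockout, 10.9 to 15.4 CPM in heterozygous and 0.0516 to 0.985 CPM in wildtype kidneys at E11.5, and at 16.7 to 17.3 CPM in heterozygous and 6.88 to 7.84 CPM in wildtype kidneys at E15.5. Its groups did not overlap, with log2 fold changes against wildtype of 4.19 ± 0.39 in knockout and 5.098 ± 0.37 in heterozygous kidneys at E11.5 and 1.20 ± 0.05 in heterozygous kidneys at E15.5. The counts do not tell reads of the Esr1 gene from reads of any Esr1 sequence that the targeted Six2 allele might hold, since the labels do not describe that allele, so these values may not be the level of the Esr1 gene; the source of the reads was not tested. Nr5a1, Bmi1 and Pcgf2, which are linked to Cited2 in the mouse, passed in no genotype comparison.

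Of 20 target genes of HIF1A, the factor that CITED2 restrains, 11 fell, 0 rose and 9 did not pass in knockout against wildtype kidneys at E11.5, where 4.05% of all genes fell and 3.09% rose. The list had a median log2 fold change of -0.25 beside -0.0021 over all genes. The largest falls were those of Car9, a carbonic anhydrase, at -1.05 ± 0.21 (SE), the hexokinase Hk2 at -0.73 ± 0.10, the lactate dehydrogenase Ldha at -0.63 ± 0.11, the glucose transporter Slc2a1 at -0.50 ± 0.11, Pdk1 at -0.49 ± 0.11 and the enolase Eno1 at -0.44 ± 0.08. Hk2 ran from 50.9 to 70.3 CPM in knockout and from 87.1 to 117 CPM in wildtype kidneys, which did not overlap. In knockout against heterozygous kidneys 7 fell and 0 rose, with a median of -0.29, where 2.81% of all genes fell, and in heterozygous against wildtype kidneys 0 of 20 passed. At E15.5, where Cited2 did not pass and 0.208% of all genes rose, 1 of 20 rose in heterozygous kidneys, P4ha1 at 0.12 ± 0.02. Whether the levels of these genes are tied to that of Cited2 was not tested.

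**Figure D5:**
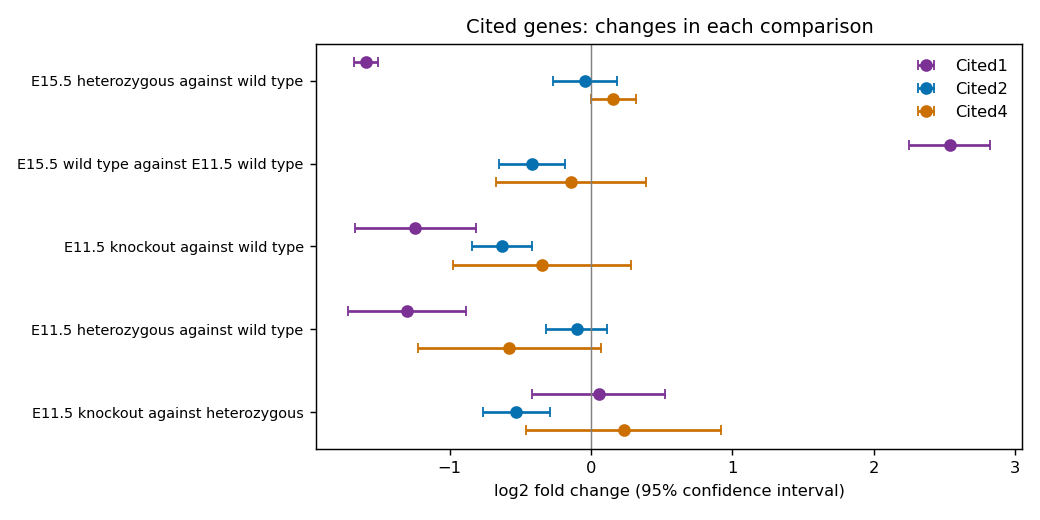
Log2 fold change of the 3 Cited genes (horizontal axis, whiskers 95% confidence intervals) in 5 comparisons. The Cited1 intervals for the E11.5 genotypes and between stages rest on values that chose the gene, so they are not tests. Cited1 lies at -1.59 for E15.5 heterozygous kidneys and at 2.54 between stages, Cited2 lies below 0 in the knockout comparisons, and every interval of Cited4 spans 0.

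The heterozygous effect was also compared between stages. The E15.5 effect minus the E11.5 effect was -0.26 ± 0.21 on the log2 scale for Cited1, given without a test because the E11.5 part chose the gene. It was 0.04 ± 0.16 for Cited2 and 0.73 ± 0.36 for Cited4 (SE; edgeR adjusted p = 1 each), so 0 of the 2 members open to a test passed, where 0.00576% of genes did. The 95% intervals of this difference ran from -0.28 to 0.37 for Cited2 and from -0.02 to 1.47 for Cited4. The nearest annotated neighbour of Cited1, Gm14858, starts 340 bases away on the opposite strand. It had 6 to 13 counts in heterozygous and 8 to 27 counts in wildtype kidneys at E15.5, with a log2 fold change of -0.95 ± 0.35 that did not pass (edgeR adjusted p = 0.464).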

How the data were processed

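Total RNA of snap-frozen whole kidneys was extracted with a Qiagen RNeasy micro kit and sequenced on Illumina libraries, per the labels' protocols. The authors deposited raw read counts per gene symbol; STAR 2.4.0h1, featureCounts 1.4.6 and mm10 are named, per the submitters' processing notes, with the annotation, strandedness and treatment of multiply mapped reads not given in the sources used here. The deposited gene length served only for levels per kilobase. The 33 libraries came from 24 specimens: 9 specimens were run in 2 batches and their runs were summed. At E15.5 runs were matched by genotype, sex and technical replicate number, and with group and batch means removed both runs of a specimen were more alike than runs of different specimens in 8 of 8; at E11.5 they were matched by title. No column of the table was left unused (0).

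The count test was that of edgeR 4.0.16 under R 4.3.3 (filterByExpr with a minimum count of 10 and total of 15, TMM scaling, quasi-likelihood F test, Benjamini-Hochberg adjustment over all genes tested at 0.05), after a check on simulated counts. Genotype, sex and batch entered at E11.5; batch equals the replicate number of the E11.5 titles, so it is the replicate block. At E15.5 the terms were genotype and sex, and comparisons between stages used all 24 specimens. Alternatives included DESeq2 1.42.0. CPM values use the scaled library sizes of all 24 specimens. Log2 ratios of Cited1 to other genes were added after values were seen. A pseudocount of 0.1 CPM was added to the list genes only, and the ratio to Six2 used none. Ribosomal counts are those of ribosomal RNA genes and of symbols such as Lars2 and Gm15564 that collect ribosomal reads.

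The members and the 13 gene lists were chosen with earlier results of these data known. Genes named are the members, Six2, the 5 genes most correlated with each member at E11.5, up to 6 called genes of a list with the largest change, and Crebbp, Ep300 and Hif1a; Gm14858 was added by position, and the summed and single values shown for list genes were picked after values were seen. Protein sequences were not used here, and 2 list genes are not reported here by name.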

Additional observations from a re-analysis of the deposited data

Results flagged for a closer look

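In 15 groups of member values (3 genes in 5 groups of 4 to 6 specimens) 2 held a specimen far from the others by Dixon's criterion. Chance meets this in about 1 of 20 groups of like specimens. That rate does not hold for the E11.5 groups, which mix 2 batches. For Cited1 at E11.5, whose values chose the gene, the flag is only a description. Cited1 in E11.5 heterozygous replicate 5, a batch 2 specimen, stood at 5.06 CPM, where the other heterozygous kidneys ran from 2.06 to 2.84 CPM. Cited4 in E15.5 wildtype replicate 1 stood at 8.79 CPM, where the other wildtype kidneys ran from 7.46 to 7.58 CPM. Leaving out any 1 specimen gave between -1.53 and -1.19 for Cited1 in E11.5 heterozygous against wildtype kidneys, and between 0.09 and 0.22 for Cited4 in E15.5 heterozygous against wildtype kidneys.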

How the results depend on the processing

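Of 479 refits of the members and of the E15.5 ratios of Cited1, 468 kept their side of the threshold or, untested, moved by less than the spread. A further 8 lost the call and 3 untested values moved, and the cause was not tested. Refits of the ratios and of Cited1 between stages were scored by a p-value, although no test of these values is given above. All of them are among the 468, so that part of the tally is only a description. The sign turned in 22 refits, 0 of them of a called value, 17 of values that did not pass and 5 of untested values, for example Cited4 in knockout against heterozygous kidneys (-0.952 in batch 1 alone, 0.232 as reported) and Cited2 in E11.5 heterozygous against wildtype kidneys (0.262 with the title prefix as a block, -0.101 as reported). Cited1 at E15.5 stayed between -1.63 and -1.54 in every alternative and between -1.62 and -1.57 without any 1 specimen, and no call of a member was lost in a leave-one-out fit. Without the replicate block, Cited2 was -0.523 (adjusted p = 0.688) in knockout against wildtype kidneys and -0.315 (0.896) against heterozygous kidneys at E11.5. For these comparisons of Cited2, batch 2 alone gave -0.506 (0.273) and -0.331 (0.494), leaving out libraries above 5% ribosomal counts, which left wildtype kidneys of batch 2 only, gave -0.606 (0.0637) and -0.46 (0.0952), and batch 1 alone gave -0.88 (0.102) for the second. Cited2 between stages without the batch term was -0.572 (0.172). Cited1 at E11.5 in batch 1 alone was -0.85 for knockout against wildtype and 0.752 against heterozygous kidneys, and 0.595 for the second with the title prefix as a block. Cited4 passed in none.

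Counts of genes called ran from 168 to 1469 (1153 as reported) in E11.5 knockout against wildtype, from 7 to 1029 (609) in knockout against heterozygous, from 0 to 52 (11) in heterozygous against wildtype, and from 43 to 155 (104) in E15.5 heterozygous against wildtype kidneys. Without knockout replicate 5 the first was 717 and the second 221, and without heterozygous replicate 4 the third was 1. With DESeq2, CITED partners in knockout against wildtype kidneys were 1 higher and 1 lower (2 and 0 as reported), and 0 higher and 1 lower against heterozygous kidneys (1 and 0). Cited1 relative to Six2 at E15.5 ran from -0.727 to -0.551, and relative to the other progenitor genes from -1.48 to -1.42. E11.5 values of Cited1 rest on as few as 30 counts in a kidney; the effect of depth was not tested.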
